A study of Mus musculus with 6 samples.

Results

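Choline oxidation and folate-dependent one-carbon metabolism were followed through 10 enzyme genes (Chdh, Aldh7a1, Dmgdh, Sardh, Shmt1, Shmt2, Mthfd1, Mthfd2, Aldh1l1 and Mat2a) out of the 24354 genes in the expression table of the choroid plexus (ChP), the epithelial tissue in the brain ventricles that makes cerebrospinal fluid. The genes were taken by symbol, and the group was chosen by the measured rise of Chdh in adult ChP, so that the values of Chdh and of its partners in that comparison are a description. No p is given for them, and where the fit across all genes called one of them, the call supports nothing. The samples were 3 from adult mice, labelled as 60 days old, and 3 from embryos at E16.5. Both ages carried the genotype FoxJ1:cre x bacTRAP (EGFP:L10a), in which Cre recombinase made under the Foxj1 promoter switches on a green fluorescent tag on the ribosomal protein L10a. Translating ribosome affinity purification (TRAP) then pulls down tagged ribosomes with the mRNA they carry. The values are meant to stand for ribosome-bound mRNA of cells with a Foxj1 history, which also include other ciliated cells. By the study's methods each sample was lateral ventricle ChP pooled from 3 mice of 8 weeks or from 3 litters, whereas the series description gives 3 mice per age, and the methods say that the study included both sexes, without giving the sex of each TRAP pool. No untagged or input library was analysed here, so that mRNA carried over from untagged cells cannot be told apart.

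Choline that is not built into phospholipid can be oxidised in mitochondria. Choline dehydrogenase (Chdh) makes betaine aldehyde, an aldehyde dehydrogenase (Aldh7a1) turns it into betaine, and betaine gives a methyl group to homocysteine. The dimethylglycine left over is demethylated to sarcosine (Dmgdh) and then to glycine (Sardh), and each of these steps hands its methyl carbon to tetrahydrofolate and its electrons to the electron transfer flavoprotein. Serine hydroxymethyltransferases load the same folate carrier from serine in the cytosol (Shmt1) and in mitochondria (Shmt2), Mthfd1 and Mthfd2 oxidise the carried carbon in those compartments, Aldh1l1 removes it as carbon dioxide, and Mat2a makes S-adenosylmethionine, the general methyl donor. Liver and kidney are the tissues best known for choline oxidation, and betaine also serves cells as an osmolyte.

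Levels are in FPKM, read fragments scaled by transcript length and by the mapped reads of the library, which the authors calculated per gene. They are therefore levels per length and can be set beside each other between genes. The table gives FPKM without the read totals behind them. For each sample a step was fitted to low values among 2520 genes with a single transcript (35 to 63 values per sample). Of these values 65.1% to 82.1% came within 0.1 of a whole multiple of the step, taken as a whole read. Evenly spread values would give 20% at a step fixed beforehand. The step was chosen to fit these same values, so that the share does not test it and the depths are estimates. By that step 1 read in a kilobase was worth 0.113 to 0.324 FPKM in the adult samples and 0.0639 to 0.0806 FPKM in the E16.5 samples, so that the adult libraries were the shallower ones. Among the 11601 genes tested (mean above 1 FPKM over the 6 samples), 10.3% to 36.4% were listed at 0 in an adult sample and 3.68% to 4.02% in an E16.5 sample. An exact 0 can be a failed estimate as well as an absent mRNA. In mRNA pulled down from pooled tissue, fewer tagged cells of a type, less mRNA per cell and carry-over from untagged cells cannot be told apart. Changes are given as log2(FPKM + 1) in adult minus E16.5 with the standard error of the limma fit, a linear model that borrows its spread from all genes, and a gene is called where its adjusted p is under 0.05. That p measures the spread between these samples.

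The sequences upstream of 3 genes are shown because they passed the filter on low values and their levels did not overlap between the ages. Dmgdh, which did not overlap either but was listed at 0 in all adult samples, is not shown. Chdh stood higher in every adult sample, while Shmt2 and Mat2a stood lower in every adult sample. RefSeq (GRCm38.p6) gives Chdh 3 transcript starts, and the FPKM values do not tell which of them was used. Each run reads 5′ to 3′ on the strand of its gene and covers 250 bases before and 50 bases after a start, with capitals where a searched motif or its reverse complement matched. The Chdh windows lie on the plus strand at chr14:30008750-30009049, chr14:30021053-30021352 and chr14:30022383-30022682. The Shmt2 window lies on the minus strand at chr10:127522395-127522694 and the Mat2a window on the minus strand at chr6:72439507-72439806.
Chdh, first start: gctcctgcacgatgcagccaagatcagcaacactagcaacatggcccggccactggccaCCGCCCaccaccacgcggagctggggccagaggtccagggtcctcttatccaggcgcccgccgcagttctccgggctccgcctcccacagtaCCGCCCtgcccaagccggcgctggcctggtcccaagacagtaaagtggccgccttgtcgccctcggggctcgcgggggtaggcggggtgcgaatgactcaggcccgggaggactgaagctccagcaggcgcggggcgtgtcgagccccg
Chdh, second start: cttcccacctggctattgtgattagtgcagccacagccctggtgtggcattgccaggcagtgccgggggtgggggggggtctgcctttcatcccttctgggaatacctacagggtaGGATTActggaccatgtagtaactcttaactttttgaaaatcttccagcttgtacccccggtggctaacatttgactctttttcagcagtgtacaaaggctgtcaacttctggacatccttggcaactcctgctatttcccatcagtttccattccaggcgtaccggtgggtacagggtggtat
Chdh, the third start: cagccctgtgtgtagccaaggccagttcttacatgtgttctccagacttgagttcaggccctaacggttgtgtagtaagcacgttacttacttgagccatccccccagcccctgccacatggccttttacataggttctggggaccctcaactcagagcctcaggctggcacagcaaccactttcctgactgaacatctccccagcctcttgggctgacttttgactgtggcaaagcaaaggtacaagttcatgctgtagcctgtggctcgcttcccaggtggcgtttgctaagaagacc
Shmt2: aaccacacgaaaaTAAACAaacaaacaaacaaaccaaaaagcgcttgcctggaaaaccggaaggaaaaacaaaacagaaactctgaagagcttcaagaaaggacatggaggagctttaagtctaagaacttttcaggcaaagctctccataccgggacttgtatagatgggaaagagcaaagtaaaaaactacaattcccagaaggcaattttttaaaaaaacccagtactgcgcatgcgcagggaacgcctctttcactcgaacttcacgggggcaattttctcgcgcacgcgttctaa
Mat2a: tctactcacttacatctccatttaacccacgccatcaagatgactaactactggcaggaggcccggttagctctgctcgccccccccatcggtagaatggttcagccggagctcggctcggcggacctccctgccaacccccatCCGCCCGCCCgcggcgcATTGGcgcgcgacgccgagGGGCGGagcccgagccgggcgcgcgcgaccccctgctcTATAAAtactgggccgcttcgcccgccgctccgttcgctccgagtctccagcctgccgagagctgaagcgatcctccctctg

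Searched on both strands were 7 motifs, namely TATAAA for the TATA box, CCAAT for the box of that name, GGGCGG for the GC box, CACGTG for the E-box, TGACGTCA for the cAMP response element, TAATCC for the core bound by OTX factors and TAAACA for the forkhead core. The first Chdh window was GC-rich, at 70.3% G or C against a median of 52.7% over 32851 windows of this length. It held 2 GC boxes, beginning 191 and 99 bases before the start, a motif found in 35.7% of all windows. The second Chdh window, at 51.7% G or C, held an OTX core 134 bases before its start, as do 7.06% of all windows. The third Chdh window, at 53.7%, held none of the 7. The Shmt2 window, at 42.7%, held a forkhead core 237 bases before the start (13.4% of all windows). The Mat2a window, at 67.0%, held a TATA box 32 bases before the start (13.6% of all windows), a CCAAT box (37.4% of all windows) and 3 GC boxes, the first pair of which overlap. The E-box and the cAMP response element, present in 7.15% and 1.79% of all windows, were in none of these 5. Over the 11 windows of the 9 enzymes with a window given here, GC boxes were in 6 windows (54.5%) and CCAAT boxes in 5 (45.5%). Such matches describe the letters and do not show that a factor binds there.

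Chdh, which catalyses the entry step of choline oxidation, showed the widest gap between the ages among the 10. Its level reached 28.9, 69.1 and 56.0 FPKM in adult replicates 1, 2 and 3, whereas E16.5 replicates 1, 2 and 3 had 0.516, 0.108 and 0.181 FPKM. Every adult sample stood far above every E16.5 sample, and within the adult group replicate 1 was the lowest. The adult mean of 51.3 ± 20.5 FPKM was 191 times the E16.5 mean of 0.268 ± 0.218 FPKM (SD, n = 3 each). On the log2(FPKM + 1) scale the difference was 5.29 (standard error 0.60), which lies above that of 99.9% of the genes tested.
By the estimated reads the E16.5 level of Chdh was low but above 3 reads. Read at its longest coding transcript, the E16.5 values correspond to about 35.2, 9.31 and 14.4 reads, and the adult values to about 616, 3343 and 948 reads. A shorter transcript would give fewer. Of the 50-base stretches of Chdh, 8.75% are shared with Cacna1d on the other strand, which was at 3.79, 2.17 and 3.11 FPKM at E16.5. The strand setting of the counting is not given, and how many E16.5 reads came from Cacna1d was not tested. The ratio of means thus rests on an uncertain E16.5 level. Within each library Chdh passed 83.0%, 93.0% and 90.5% of the genes tested in the adult samples and 6.51%, 4.77% and 5.55% of them in the E16.5 samples. It moved from among the most weakly measured genes to the upper part of the range. The difference stayed between 4.85 and 7.72 over the alternatives that change its value, the highest at a pseudocount of 0.01. The call of Chdh, made on the values that chose it, was absent on leaving out E16.5 replicate 2, where the difference was 5.20.

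**Figure D1:**
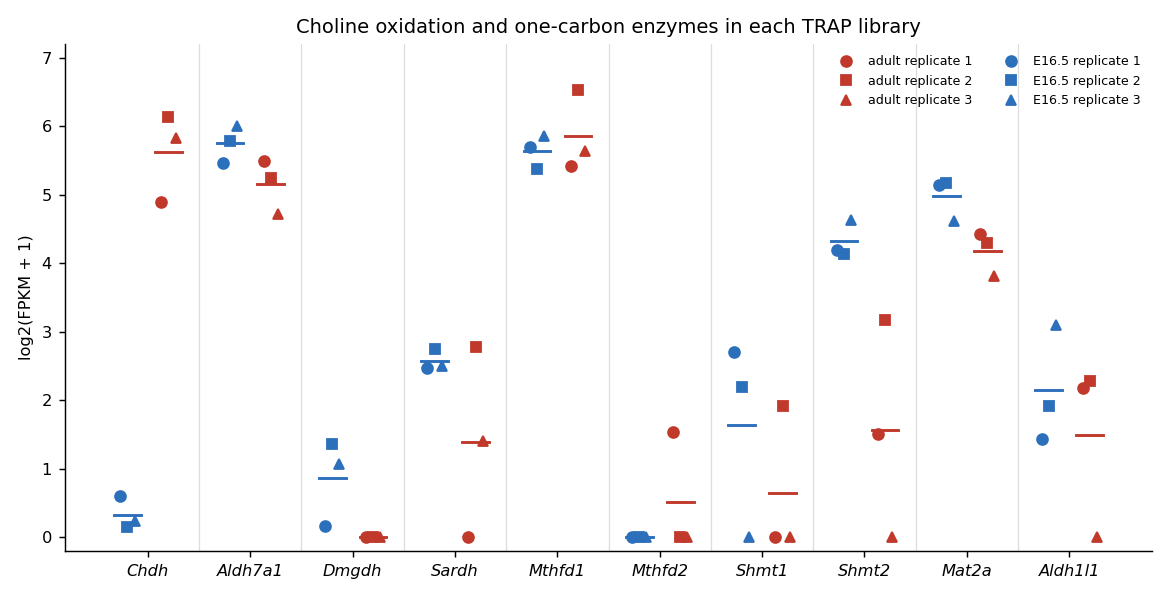
Level of each of the 10 enzyme genes as log2(FPKM + 1) in the 3 adult samples (red) and the 3 E16.5 samples (blue), with the marker shape giving the replicate number and the bar the group mean. Chdh lies at 28.9 to 69.1 FPKM in the adult samples against 0.108 to 0.516 FPKM in the embryonic ones, while Aldh7a1 and Mthfd1 are well above 0 in all 6 samples and Mthfd2 is at 0 in all but adult replicate 1.

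Aldh7a1, which oxidises betaine aldehyde and also lysine-derived aldehydes, was abundant at both ages. It measured 43.8, 36.9 and 25.4 FPKM in the adult samples and 43.1, 54.0 and 63.1 FPKM in the E16.5 samples. Adult replicate 1 stood slightly above E16.5 replicate 1, so that the groups overlapped. The means were 35.4 ± 9.28 and 53.4 ± 10.0 FPKM (SD, n = 3 each) and the log2 difference was -0.60 (standard error 0.35). It was -0.20 after quantile normalization, -1.41 and called lower after rescaling every sample to the same sum of FPKM, and -0.38 without adult replicate 3.
The balance between the opening steps of choline oxidation differed between the ages, mostly by the level of Chdh. The log2 ratio of Chdh to Aldh7a1, each as FPKM + 1, was -0.59, 0.89 and 1.11 in the adult samples and -4.86, -5.63 and -5.76 in the E16.5 samples. The mRNAs were present at similar levels in adult ChP, and at E16.5 the Aldh7a1 mRNA was present with little Chdh mRNA. The difference of the mean ratios was 5.89, with a mean of 0.47 ± 0.92 in adult and -5.42 ± 0.49 at E16.5 (SD, n = 3 each).

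The enzymes that demethylate dimethylglycine and sarcosine were low in both groups. Dmgdh, on chromosome 13, was listed at 0 in all adult samples and measured 0.115, 1.57 and 1.10 FPKM in the E16.5 samples. The E16.5 values correspond to about 3.98, 68.6 and 44.6 reads, while 3 reads would have been worth 0.276, 0.122 and 0.349 FPKM in the adult libraries. No fold is given against a group listed at 0, and with a mean of 0.464 FPKM over the 6 samples Dmgdh was not among the genes tested.
Sardh, on chromosome 2, measured 0, 5.87 and 1.65 FPKM in the adult samples and 4.52, 5.70 and 4.65 FPKM in the E16.5 samples. Adult replicate 2 was the highest of all 6, and the adult values spread more widely than those of E16.5. The means were 2.51 ± 3.03 and 4.96 ± 0.646 FPKM (SD, n = 3 each), a log2 difference of -1.17 (standard error 0.83) that became 0.0073 after quantile normalization. Without adult replicate 1 it was -0.48 and without adult replicate 2 it was -1.87.

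Among the folate enzymes, the mitochondrial serine hydroxymethyltransferase Shmt2 showed a gap between the ages. Its level was 1.83, 8.02 and 0 FPKM in the adult samples and 17.2, 16.6 and 23.9 FPKM in the E16.5 samples. All adult samples lay below all E16.5 samples, with adult replicate 2 the nearest. The means were 3.28 ± 4.21 and 19.2 ± 4.02 FPKM (SD, n = 3 each), and the log2 difference was -2.76 (standard error 0.86), which lies above that of 9.28% of the genes tested.
The Shmt2 difference was not called in the comparison as made. It was called lower in adult in 2 of 17 alternatives, namely without adult replicate 2, where it was -3.57, and after rescaling every sample to the same sum of FPKM, where it was -3.36.
Its cytosolic counterpart Shmt1 was lower and patchy, at 0, 2.78 and 0 FPKM in the adult samples and 5.52, 3.56 and 0 FPKM in the E16.5 samples. The groups overlapped, and each held a sample at 0. The 0 in E16.5 replicate 3 came from a library in which 1 read of Shmt1 is worth 0.0259 FPKM, beside about 182 and 148 reads in the other E16.5 samples. The log2 difference was -0.99 (standard error 0.93), and leaving out a sample moved it to between -0.45 (E16.5 replicate 1) and -1.81 (E16.5 replicate 3).
The log2 ratio of Shmt2 to Shmt1 was 1.50, 1.25 and 0 in adult and 1.48, 1.95 and 4.64 at E16.5, so that its ranges touched between the ages. In every sample but adult replicate 3, where both were listed at 0, the mitochondrial enzyme was the more abundant. The mean ratio in adult minus that at E16.5 was -1.77, and it was -0.80 without E16.5 replicate 3 and -2.37 without E16.5 replicate 1.

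Mthfd1, the trifunctional cytosolic enzyme that interconverts the folate-bound carbon units, had the highest adult mean of the 10, although Aldh7a1 was higher in adult replicate 1 and Chdh in adult replicate 3. It measured 41.9, 91.5 and 48.6 FPKM in the adult samples and 50.8, 40.7 and 56.7 FPKM in the E16.5 samples. The E16.5 range lay almost wholly inside the adult range, and adult replicate 2 stood apart from the other samples. The means were 60.7 ± 26.9 and 49.4 ± 8.09 FPKM (SD, n = 3 each), with a log2 difference of 0.22 (standard error 0.38) that was -0.59 after rescaling to the same sum. Leaving out adult replicate 1, adult replicate 2 or E16.5 replicate 2 gave 0.44, -0.11 and 0.091.
Its mitochondrial relative Mthfd2, known for high expression in embryonic and proliferating cells, was listed at 0 in all E16.5 samples and in adult replicates 2 and 3. The single value above 0 was 1.91 FPKM in adult replicate 1, equal to about 14.0 reads. With a mean of 0.319 FPKM it was not tested, and no stretch of 50 bases of its transcripts is shared with another gene. In the E16.5 libraries 3 reads of Mthfd2 would have been worth 0.102 to 0.128 FPKM.
Aldh1l1, which oxidises formyl-tetrahydrofolate and is also a marker of astrocytes, was low and variable. It measured 3.54, 3.83 and 0 FPKM in the adult samples and 1.71, 2.76 and 7.60 FPKM in the E16.5 samples. The groups overlapped, and both the lowest adult and the highest E16.5 value came from replicate 3. The log2 difference was -0.67 (standard error 0.87), and leaving out adult replicate 3, adult replicate 2 or E16.5 replicate 3 gave 0.076, -1.06 and -0.19. After quantile normalization it was 0.075.

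Mat2a, the catalytic subunit of the methionine adenosyltransferase found outside the liver, measured 20.6, 18.5 and 13.0 FPKM in the adult samples and 34.5, 35.1 and 23.5 FPKM in the E16.5 samples. All adult values lay below all E16.5 values, although adult replicate 1 and E16.5 replicate 3 were close. The means were 17.4 ± 3.90 and 31.0 ± 6.49 FPKM (SD, n = 3 each), so that the E16.5 mean was 1.78 times the adult mean. The log2 difference was -0.80 (standard error 0.40), near the median of all genes tested, and it was called only after rescaling to the same sum, at -1.59. Of the 50-base stretches of Mat2a, 14.2% are shared with other genes, mostly with the antisense gene Particl (9.64%), and the strand setting of the counting is not given in the sources used here.

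Set in order, the adult samples had Mthfd1, Chdh and Aldh7a1 on top, with neighbouring ranges that overlapped. Mat2a followed apart from them. Shmt2, Sardh, Aldh1l1, Shmt1, Mthfd2 and Dmgdh came below it, each overlapping the next. At E16.5 Aldh7a1 and Mthfd1 led with overlapping ranges, followed by Mat2a and Shmt2, which also overlapped. Sardh, Aldh1l1, Shmt1, Dmgdh and Chdh came after a gap, each overlapping the next, and Mthfd2 was last at 0. Chdh thus held the second place of 10 in adult and the ninth at E16.5.

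Of the 10 genes, 8 passed the filter on low values and 4 (Chdh, Aldh7a1, Mthfd1 and Mat2a) were above 0 in all 6 samples. In the limma comparison 1 of the 8, Chdh, was called higher in adult, a direction in which 2.12% of all genes tested were called. None was called lower, where 8.83% of all genes tested were, and 10.9% were called in either direction. The adult values were all above the E16.5 values in 1 of the 8 (7.39% of all genes tested) and all below them in 2 (31% of all genes tested), and in 5 the ages overlapped. Across all genes tested 38.4% did not overlap. Because Chdh chose the group, nothing is read from these counts. The median log2 difference of the 8 was -0.73 and that of all genes tested was -0.86, with 3 of the 8 below it and 5 above. Relative to that median, the difference was 6.15 for Chdh, 0.26 for Aldh7a1 and 0.055 for Mat2a.

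**Figure D2:**
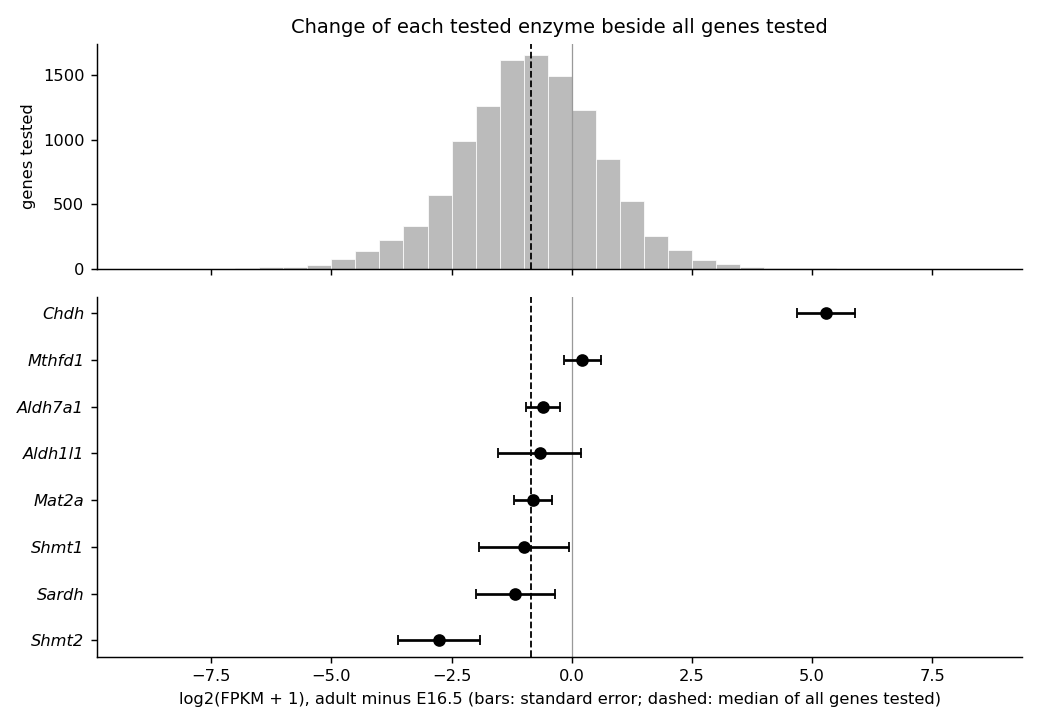
Upper panel: number of genes tested by log2(FPKM + 1) difference, adult minus E16.5. Lower panel: the same difference for the 8 tested enzyme genes with its standard error from the limma fit, and a dashed line at the median of all genes tested. Chdh lies at 5.29 in the right tail, Shmt2 at -2.76 is the lowest, and the other 6 fall between -1.17 and 0.22.

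Around these enzymes, 70 further genes of choline, folate and methionine metabolism were listed in 6 groups that hold none of the 10. Of them 54 were tested, 2 were called higher in adult and 1 lower (2.12% and 8.83% of all genes tested), with a median log2 difference of -0.79 beside -0.86 for all genes tested. Without adjustment 5 were higher and 10 lower at a p under 0.05, together 27.8% of the 54 beside 31.3% of all genes tested.
Among the 14 tested genes of choline uptake and phosphatidylcholine synthesis, 1 was called higher and none lower, with a median of -0.31. Etnk1, the ethanolamine kinase that starts phosphatidylethanolamine synthesis, measured 57.4, 44.3 and 58.4 FPKM in the adult samples and 15.6, 9.58 and 8.79 FPKM in the E16.5 samples. The ages did not overlap, and the log2 difference was 2.17 (standard error 0.39, limma adjusted p = 0.0201). Etnk1 was called in 12 of 17 alternatives, and leaving out E16.5 replicate 1, 2 or 3 gave limma adjusted p of 0.0600, 0.0794 and 0.0723. Pcyt1a, the enzyme that limits phosphatidylcholine synthesis, was similar at 17.9 ± 7.67 and 20.9 ± 2.05 FPKM (SD, n = 3 each). The neuronal choline transporter Slc5a7 and the methyltransferase Pemt, which makes phosphatidylcholine by methylation, were listed at 0 in all 6 samples.

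The neighbouring steps of betaine and sarcosine metabolism had 5 tested genes of 10, none of them called, with a median of -1.23. Betaine-homocysteine methyltransferase, the enzyme that spends the betaine made by Chdh and Aldh7a1, was scarcely measured. Bhmt stood at 0, 1.33 and 0 FPKM in the adult samples and 2.77, 0 and 0.436 FPKM in the E16.5 samples, and Bhmt2 was above 0 only in E16.5 replicate 1, at 4.31 FPKM. Slc25a48, a mitochondrial carrier of choline, and Slc6a12, a betaine transporter, were listed at 0 throughout.
Both subunits of the electron transfer flavoprotein were measured lower in every adult sample, as were 31% of all genes tested. Relative to the median of all genes tested, the difference was -0.47 for Etfb and -0.38 for Etfa. Etfb was at 98.8, 239 and 112 FPKM in adult against 363, 361 and 321 FPKM at E16.5, a log2 difference of -1.33 (standard error 0.36, limma adjusted p = 0.0561). Etfa was at 26.1, 44.1 and 63.7 FPKM in adult against 100, 111 and 90.3 FPKM at E16.5, a difference of -1.23 (standard error 0.38, limma adjusted p = 0.0757). Neither passed the threshold in the comparison as made. Etfb was called lower in 4 of 17 alternatives and Etfa in 2 of 17. With a sample left out the limma adjusted p ranged from 0.0105 (without adult replicate 2) to 0.169 for Etfb. For Etfa it ranged from 0.0252 (without adult replicate 3) to 0.215. Etfb has 44.8% of its 50-base stretches in common with other genes. Gnmt, which uses S-adenosylmethionine to methylate glycine to sarcosine, was at 7.39, 10.6 and 0 FPKM in adult against 24.5, 28.9 and 31.3 FPKM at E16.5 without being called (limma adjusted p = 0.103), and was called lower in 2 of 16 alternatives.

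None of the 10 tested cytosolic folate genes was called (median -1.04), nor were any of the 7 tested genes of mitochondrial folate metabolism and glycine cleavage (median -0.27). By the mean over all 6 samples the most abundant cytosolic ones were Ggh, the hydrolase that trims folate tails, and Atic, of purine synthesis. Ggh ranged from 2.33 to 65.5 FPKM in adult against 17.0 to 42.4 FPKM at E16.5, and Atic from 2.12 to 27.4 and from 13.9 to 31.7 FPKM, and at E16.5 Gart had a slightly higher mean than Atic. In the mitochondrial list Dld, the dihydrolipoamide dehydrogenase shared by glycine cleavage and the 2-oxoacid dehydrogenases, was at 95.7, 67.8 and 62.5 FPKM in adult against 40.2, 26.7 and 30.2 FPKM at E16.5. Its ages did not overlap, at a log2 difference of 1.19 (standard error 0.34, limma adjusted p = 0.0619). In 4 of 17 alternatives Dld was called higher. Gcsh, the carrier protein of glycine cleavage, was at 22.9 ± 29.3 and 18.4 ± 4.23 FPKM (SD, n = 3 each).
In the methionine cycle 1 of 8 tested genes was called higher (median 0.038). Ahcyl2, a relative of S-adenosylhomocysteine hydrolase, was at 389, 463 and 399 FPKM in adult against 139, 171 and 149 FPKM at E16.5. The ages were well apart, at a log2 difference of 1.44 (standard error 0.23, limma adjusted p = 0.0130). Ahcyl2 was called in 11 of 17 alternatives. Leaving out E16.5 replicate 1, 2 or 3 gave limma adjusted p of 0.0648, 0.0632 and 0.0619, and the adjusted p was 0.168 after rescaling to the same sum, where the difference was 0.61. Ahcyl1, its close relative, was at 139 ± 21.9 and 98.6 ± 9.91 FPKM (SD, n = 3 each; limma adjusted p = 0.246). The hydrolase Ahcy itself was listed at 0 in 4 of the 6 samples. Other genes hold 68.7% of its 50-base stretches, and Gm4737 alone holds 66.0%.
In serine and purine synthesis 1 of 10 tested genes was called lower (median -1.16). Phgdh, which commits glycolytic carbon to serine, was at 0, 9.87 and 1.96 FPKM in adult against 34.1, 41.9 and 34.2 FPKM at E16.5. All adult samples lay below, at a log2 difference of -3.56 (standard error 0.86, limma adjusted p = 0.0416). Phgdh was called in 5 of 16 alternatives. The limma adjusted p was 0.0594 without adult replicate 1, and leaving out E16.5 replicate 1, 2 or 3 gave 0.141, 0.156 and 0.135. Other genes hold 47.8% of its 50-base stretches. Paics and Adss, of purine synthesis, had the highest means of that list over all 6 samples, at 44.4 ± 24.0 and 72.9 ± 7.97 FPKM and at 27.3 ± 15.8 and 35.6 ± 11.0 FPKM in adult and E16.5 (SD, n = 3 each), with overlapping ages. At E16.5 the mean of Phgdh, 36.8 FPKM, was above that of Adss.

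**Figure D3:**
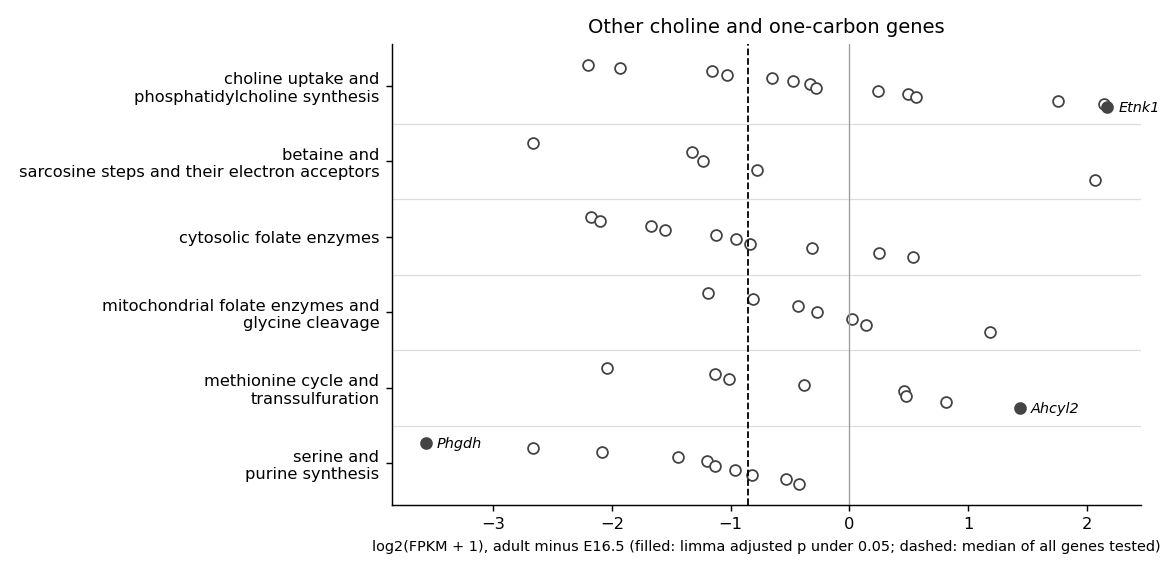
Log2(FPKM + 1) difference, adult minus E16.5, of the 54 tested genes in 6 lists around the 10 enzymes, with filled points for a limma adjusted p under 0.05 and a dashed line at the median of all genes tested. Only Etnk1 (2.17), Ahcyl2 (1.44) and Phgdh (-3.56) are filled.

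The genes most like Chdh in profile were found by the Euclidean distance between centred log2(FPKM + 1) values over the 6 samples. Tgfb2, a secreted growth factor, was nearest (distance 1.18), followed by Enpp2, which encodes autotaxin (1.19), the tetraspanin Cd9 (1.26), coagulation factor F5 (1.44) and transferrin, Trf (1.45). Their Pearson correlations with Chdh over those 6 samples were 0.981 to 0.996, which mostly restate the distance between the ages. All were measured at E16.5 above the level of Chdh, from 3.98 ± 1.71 FPKM for Tgfb2 to 273 ± 30.5 FPKM for Enpp2 (SD, n = 3 each). Their adult means ran from 160 ± 21.1 FPKM for Tgfb2 to 16676 ± 1937 FPKM for Enpp2 (SD, n = 3 each), all above that of Chdh.

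Chdh lies on chromosome 14 at 30009023 to 30040527 on the plus strand in the GENCODE annotation of mm10. Its neighbours were added after their values were seen. Il17rb, an interleukin-17 receptor gene on the minus strand, runs away from Chdh, with 126 bases between its start and that of Chdh. It was at 3.16 FPKM in adult replicate 1 and listed at 0 in the other 5 samples. Actr8, a chromatin remodelling subunit upstream on the plus strand, was at 15.6, 15.9 and 0 FPKM in adult against 9.80, 12.3 and 7.92 FPKM at E16.5. The calcium channel gene Cacna1d, on the minus strand, shares 589 exon bases with the 3′ end of Chdh (9.47% of the exon bases of Chdh). It was at 2.24, 1.17 and 3.11 FPKM in adult against 3.79, 2.17 and 3.11 FPKM at E16.5. The levels of all 3 neighbours overlapped between the ages, and Chdh stood above Cacna1d in every adult sample and below it in every E16.5 sample.

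**Figure D4:**
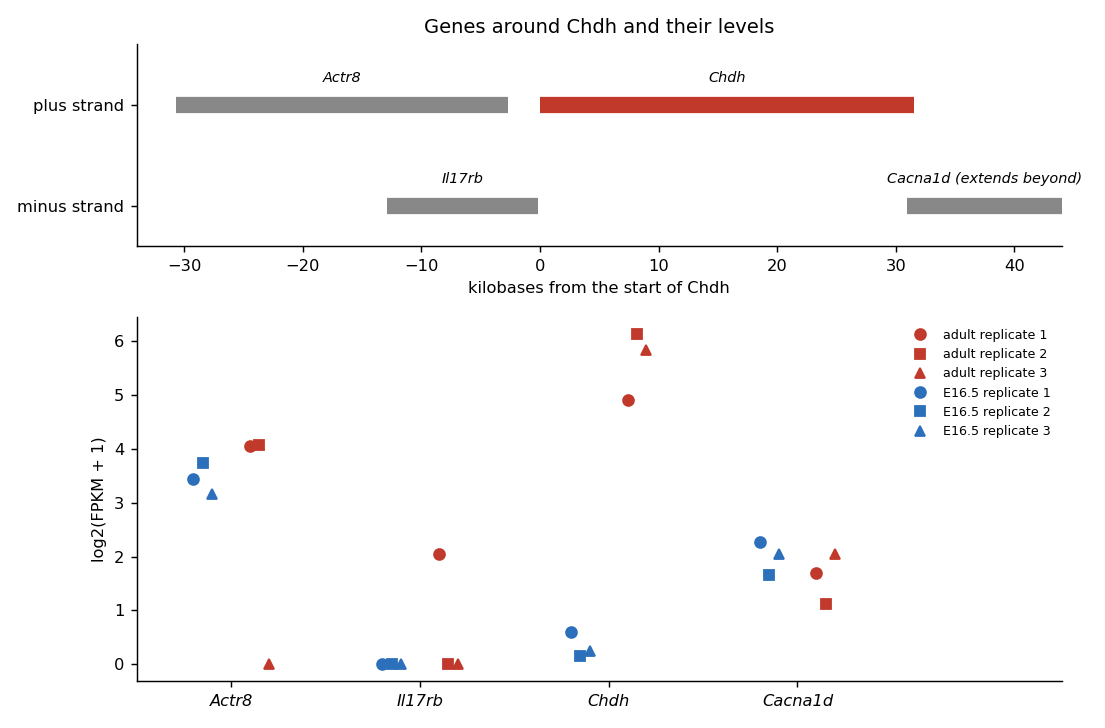
Upper panel: extent of Chdh and its neighbours on either strand, in kilobases from the start of Chdh. Lower panel: log2(FPKM + 1) of the same genes in the 3 adult (red) and 3 E16.5 samples (blue), the marker shape giving the replicate number. Chdh alone separates the ages, while Actr8, Il17rb and Cacna1d overlap.

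Marker genes of the tissue and of other cell types also differed between these samples, and their part in these differences was not tested. Beside the counts below, 2.12% of all genes tested were called higher in adult and 8.83% lower. In 31% of all genes tested every adult value lay below every E16.5 value. The summed level of 10 ChP epithelium markers was 39197 to 54324 FPKM in adult against 2840 to 3303 FPKM at E16.5, with 4 called higher and 1 lower. Most of that sum lies in Ttr and Enpp2, and the other 8 genes summed to 3388 to 4290 FPKM in adult against 2567 to 3000 FPKM at E16.5. Ttr, the transthyretin gene, was at 20922 to 31302 FPKM in adult and listed at 0 in every E16.5 sample, where a failed estimate is possible, while Folr1, the folate receptor of ChP epithelium, was at 465 to 707 FPKM in adult against 827 to 1048 FPKM at E16.5. Summed motile cilia markers (8 genes, 3 of 6 tested called lower) were 145 to 352 FPKM in adult against 736 to 873 FPKM at E16.5. Foxj1 itself, whose promoter drives Cre, was among them at 37.9, 45.8 and 62.4 FPKM in adult against 208, 198 and 154 FPKM at E16.5. Mesenchymal markers (7 genes, 1 of 6 tested called lower) summed to 13.3 to 22.0 and 58.6 to 69.4 FPKM. Red blood cell markers (5 genes, 2 of 3 tested called lower) summed to 0 to 6.49 and 54.1 to 324 FPKM. Cell cycle markers (8 genes, 2 of 6 tested called lower) summed to 4.83 to 45.8 and 56.6 to 104 FPKM, with Mki67 and Top2a at 0 in every adult sample. The pair with the highest means in that list was measured in adult as well. Pcna was at 0, 27.0 and 0 FPKM in adult against 25.0, 48.0 and 33.7 FPKM at E16.5. Mcm2 was at 4.83, 4.62 and 29.4 FPKM against 9.53, 14.9 and 22.5 FPKM, and both genes overlapped between the ages. Neuronal and progenitor markers (8 genes, none of 5 tested called) summed to 0.145 to 9.88 and 27.2 to 114 FPKM. Most of that sum in E16.5 replicates 2 and 3 lay in Sox2. Sox2 was at 7.81, 9.81 and 0.145 FPKM in adult against 26.3, 25.3 and 26.4 FPKM at E16.5. The neuronal gene Tubb3 was at 36.2, 0.623 and 0.134 FPKM at E16.5 and at most 0.0742 FPKM in adult. No tested marker was called for endothelium (0.435 to 26.8 and 12.3 to 39.7 FPKM over 6 genes), macrophages (0.0695 to 6.82 and 0.584 to 8.48 FPKM over 7 genes) or astrocytes (0 to 12.8 and 5.05 to 13.7 FPKM over 6 genes). Aldh1l1 is also a marker of astrocytes, and whether astrocyte mRNA entered its values was not tested. In the astrocyte list Gfap was at most 0.188 FPKM and Aqp4 at most 1.25 FPKM, each in adult replicate 2. Slc1a2 was at 0.165, 0.846 and 0 FPKM in adult against 6.08, 3.70 and 2.78 FPKM at E16.5. Slc1a3 was at 0.0637, 1.55 and 0 FPKM in adult against 6.88, 1.33 and 2.57 FPKM at E16.5. S100b was at 0, 8.97 and 0 FPKM in adult against at most 0.492 FPKM at E16.5, and Gjb6 was at 0 in all 6 samples. Mir6236, annotated as a microRNA gene, took 32.7% to 51.7% of the summed FPKM in the adult samples and 13.3% to 15.0% in the E16.5 samples, and it is counted in the sum used for rescaling.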

How the data were processed

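The labels put 3 TRAP libraries of ChP in the adult group and 3 in the E16.5 group. According to the methods of the paper, single-end reads of 50 bases were aligned to mm10 with STAR (2.4.0 in the processing notes of the submitters), and the authors computed the deposited FPKM with Cuffquant of Cufflinks. The gene annotation used there and any further scaling between samples are not given in the sources used here. FPKM hold no counts, so no count test was run. The comparison ran on log2(FPKM + 1) of genes whose 6 values averaged above 1 FPKM, by limma (version 3.58.1, under R version 4.3.3) using the trend of spread on intensity, where the pseudocount of 1 understates changes of low genes. P-values were adjusted by the Benjamini-Hochberg method over all 11601 genes to a threshold of 0.05. The fit was tested on simulated data. The enzymes, pathway lists and marker lists were chosen with earlier results of these data known. Named genes were all 10 enzymes, in each pathway list the called genes and the pair with the highest mean FPKM, the 5 genes nearest to Chdh, and from every marker list the pair with the highest mean FPKM, of which not all are named. Bhmt, Bhmt2, Slc25a48, Slc6a12, Slc5a7, Pemt, Gnmt, Gart and Ahcy among the pathway genes were named after their values were seen. So were Mki67, Top2a, Gjb6, S100b, Gfap and Aqp4 among the markers, Mir6236 and the neighbours of Chdh. Reads per gene were estimated from the step of low FPKM values at transcript length minus 200 bases. They cover counting error only and are not independent molecules. Shared stretches of 50 bases came from the GENCODE transcripts of mm10, and promoter windows from RefSeq, which gave a printable window for 9 of the 10 enzymes. Alternatives were pseudocounts of 0.1 and 0.01, 3 filters on low values, 3 scalings, no trend, a replicate block, an adjusted p of 0.01 and each sample left out, 17 in all.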

Additional observations from a re-analysis of the deposited data

How the results depend on the processing

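The count of enzymes higher in adult was 1 (Chdh, on the values that chose it) and 0 to 1 with a sample left out, the 0 without E16.5 replicate 2. The count of enzymes lower in adult was 0 in the main comparison, 3 (Aldh7a1, Shmt2 and Mat2a) after rescaling to the same sum, and 0 to 1 with a sample left out. That rescaling called 3238 of all 11601 genes tested lower, and nothing is read from the count of enzymes. The difference in the log2 ratio of Chdh to Aldh7a1, adult minus E16.5, was 5.89 as reported, 7.80 at a pseudocount of 0.1 and 8.34 at 0.01. The difference in the ratio of Shmt2 to Shmt1, -1.77 as reported, was -1.99 at 0.1 and -2.01 at 0.01, and ranged from -2.37 to -0.80 with a sample left out. That of Mthfd2 to Mthfd1 went from 0.29 to 2.30 at 0.01, and that of Dmgdh to Sardh from 0.31 to -2.49, and with samples left out these ranged from -0.44 to 0.88 and from -0.39 to 1.0.

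Of the pathway genes, 2 were called higher and 1 lower. The lower count was 0 at pseudocounts of 0.1 and 0.01 and with no filter on low values, and 3 with an FPKM above 1 in at least 3 samples. After rescaling to the same sum the counts were 1 higher and 10 lower, after median-ratio scaling 3 and 0, and after quantile normalization 4 and 0. The 10 lower of 54 tested after rescaling stand beside 3238 lower of all 11601 genes tested. Without a trend 1 was higher, and at an adjusted p of 0.01 both counts were 0. With each sample left out they ranged from 0 to 5 higher and from 0 to 7 lower.

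Over all genes 246 were called higher and 1024 lower (19.4% of calls higher). Rescaling to the same sum gave 119 and 3238 (3.54%) with a median change of -1.48, median ratios 348 and 660 (34.5%, median -0.58), and quantile normalization 466 and 449 (50.9%, median -0.15). The 6562 genes above 0 in every sample gave 271 and 451 (37.5%). Without a trend 158 were higher, and at an adjusted p of 0.01 the counts were 56 and 132. With each sample left out they ranged from 27 to 357 higher and from 16 to 1704 lower, the lowest pair without E16.5 replicate 2, and the cause was not tested. Where a sample was left out, the arm of 2 was assumed to vary like the other.

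Replicate numbers in the labels run from 1 to 3 in either age, with no word that a number was shared. Deviations of same-numbered samples from their group means correlated at 0.00089, 0.0439 and 0.0150 across genes, so that the numbers were not taken as pairs. With the replicate block 112 genes were higher and 452 lower, Chdh was called, and 1 pathway gene (Ahcyl2) was higher and 0 were lower.

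Mapped read numbers were not given. By the steps of low values the adult libraries were shallower and held more values listed at 0, but whether depth set those zeros was not tested, and a level under 3 reads could not be told from 0.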
